A study of Homo sapiens with 34 samples.

Results

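MDAPCa2a cells on plastic were compared in medium with charcoal-dextran-stripped serum and in their usual control medium. The members were chosen by label: the 2 libraries of each plastic group of this line, which are 4 of the 34 libraries of the series. MDAPCa2a is a human prostate cancer line labelled as bone metastatic. All its cultures had BRFF-HPC1 base medium with antibiotics, and fetal bovine serum in routine culture. Plastic was coated with FNC mix, a protein coating that the surfaces of amorphous calcium phosphate (ACP) did not get. The control group is labelled continuous culture and the stripped group day 4, whereas the protocol describes both as passaged alike and then grown for 4 days. The 4 other MDAPCa2a libraries were on ACP in stripped serum, without or with androgen at a labelled 100 mM (DHT in the titles, testosterone in the condition), and no androgen was added on plastic. They entered the estimate of the spread and are given beside the results. The contrast is also drawn against the same one in LNCaP, a prostate adenocarcinoma line grown in RPMI with fetal bovine serum.

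Charcoal coated with dextran removes small lipophilic molecules from serum, among them sex steroids, glucocorticoids and thyroid hormone. Receptors for these hormones are transcription factors that bind DNA and raise or lower their target genes, so medium with stripped serum is a standard way to withdraw hormones from prostate cells. KLK3, which encodes prostate-specific antigen, and KLK2, a related secreted protease, are textbook androgen-induced genes of luminal prostate epithelium. Cells can also make steroids from cholesterol, beginning with the side-chain cleavage enzyme CYP11A1.

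Total counts were 34.9 M and 38.3 M in the control libraries, 31.2 M and 24.6 M in the stripped libraries, and 15.4 M to 19.0 M on ACP. Pearson's r of log2 CPM (counts scaled to the library's TMM-normalized total) across genes was 0.992 between the control libraries and 0.984 between the stripped libraries. Chi-square per gene was 19.0 and 48.1 in these pairs, so neither pair was a copy. The labels do not say that replicates were separate cultures, so p-values measure the spread between these libraries, which may be technical. Luminal markers were present in every library, with KRT8 at 660 to 1059 CPM, HOXB13 at 743 to 961 CPM and FOLH1 at 1546 to 2680 CPM over the 8 MDAPCa2a libraries, and the basal marker TP63 was at 0 to 0.355 CPM. Of 15 luminal prostate markers, 0 passed the threshold with edgeR (DESeq2 called 1, and without adjustment 6 were higher and 0 lower at p below 0.05). The 2 control libraries belong to the 8 plastic control libraries of the series. In all 4 lines these had reads for more liver markers than the other libraries of the line (below). For every result here a library batch and the medium cannot be told apart.

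In stripped serum 215 of 13626 genes changed, 1.58% of those tested, with edgeR's quasi-likelihood test and a Benjamini-Hochberg adjusted p below 0.05. Of these, 120 rose (0.881%) and 95 fell (0.697%), and 177 changed by at least 1 on the log2 scale (92 rose, 85 fell). The median log2 change of all genes tested was -0.01, and 2208 genes had an unadjusted p below 0.05. The count rests on each of the 4 libraries. It was 0 when replicate 1 of the control or replicate 2 of the stripped libraries was left out (1069 and 1508 genes at an unadjusted p below 0.05, edgeR), 7 without plastic control replicate 2 and 6 without plastic stripped replicate 1, while DESeq2 on all libraries called 594. No call on a single gene below therefore held when either of these was left out. Of the genes named below, without plastic control replicate 2 the calls of CYP11A1, CHRNA2, CD74, CA3, NIPSNAP3B, PKIB and SPARC held, and without plastic stripped replicate 1 those of CYP11A1 and LINC00883. Values below are CPM per library with n = 2 in each group, and log2 changes are stripped minus control with ± SE.

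Of the androgen-induced genes FKBP5, CHRNA2 and ORM1 rose in stripped serum and 0 fell. The promoters of KLK3 and KLK2 are shown as those of textbook androgen-induced genes, though neither gene passed the threshold here. Both windows hold the same match to the inverted repeat of steroid receptor binding sites. The windows are bases -200 to -101 from the RefSeq start (GRCh38.p14, plus strand), at chr19:50854715-50854814 for KLK3 and chr19:50873239-50873338 for KLK2. Capitals mark the match, which was searched on both strands as GNACA followed after 4 bases by GTNC.
KLK3: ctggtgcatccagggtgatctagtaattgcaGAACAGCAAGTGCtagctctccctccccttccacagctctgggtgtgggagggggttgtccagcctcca
KLK2: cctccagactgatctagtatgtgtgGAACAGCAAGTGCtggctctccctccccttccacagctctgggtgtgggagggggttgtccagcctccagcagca

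The match lies at -169 to -157 in KLK3 and at -175 to -163 in KLK2, and 2.19% of 35116 RefSeq windows, from 250 bases before to 50 after the start, hold one. Of 29 genes searched (the 24 with the largest changes, FKBP5, PER1, ORM1, KLK3 and KLK2), 24 had a window, and only KLK2 and KLK3 of these held the match. KLK3 was at 5170 and 5329 CPM in control medium and at 7292 and 8655 CPM in stripped serum (log2 0.60 ± 0.26, edgeR adjusted p 0.305). KLK2 was at 591 and 672 CPM and then at 1241 and 1323 CPM (log2 1.02 ± 0.21, adjusted p 0.0516). In both genes each stripped library was above each control library, and neither passed the threshold. These genes are close paralogs, and reads they share may be split or lost in counting.

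FKBP5 encodes a co-chaperone of steroid receptors that both androgens and glucocorticoids induce. Its level was 171 and 209 CPM in control medium and 774 and 851 CPM in stripped serum, and it rose by log2 2.10 ± 0.21 (edgeR adjusted p 0.00719). On ACP it was at 410 and 325 CPM without androgen and 375 and 293 CPM with it, between the plastic groups. CHRNA2, a subunit of nicotinic acetylcholine receptors, was at 5.12 and 8.02 CPM and then at 29.3 and 42.0 CPM, a rise of log2 2.44 ± 0.28 (adjusted p 0.0118). ORM1, an acute-phase plasma protein, had 3 reads in both control libraries together and 54 in the stripped libraries, a ratio of 23.4 (95% exact interval 7.60 to 117, counting error only; adjusted p 0.0255). TMPRSS2, a membrane serine protease, went from 716 and 719 CPM to 960 and 1260 CPM (log2 0.63 ± 0.24, adjusted p 0.244). PGC, the precursor of a pepsin, had the largest difference of the list above 5 CPM without passing, with 36.1 and 51.9 CPM in control medium and 684 and 319 CPM in stripped serum (log2 3.51 ± 0.75, adjusted p 0.0563).

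Of 28 androgen-induced genes, all tested, 3 rose and 0 fell, 20 were higher and 8 lower, and their median log2 change was 0.62 (0.42 to 0.79 without 1 library). In the alternatives that kept the 4 libraries 3 to 12 rose and 0 fell. The largest downward difference above 5 CPM was that of NDRG1, a stress-response gene, from 192 and 200 CPM to 167 and 162 CPM (log2 -0.25 ± 0.25, adjusted p 0.700). Of 15 tested androgen-repressed genes 0 rose and 2 fell, DDC and NTS. DDC, the decarboxylase that makes dopamine and serotonin, fell from 132 and 119 CPM to 23.3 and 35.9 CPM (log2 -2.09 ± 0.41, adjusted p 0.0458). NTS, the neuropeptide neurotensin, had 76 reads in control medium and 0 in stripped serum, at least 19.5-fold lower with the group's limit set at 3 counts (adjusted p 0.0397), and its plastic control libraries were also above all others in 2 of the 3 other lines.

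**Figure D1:**
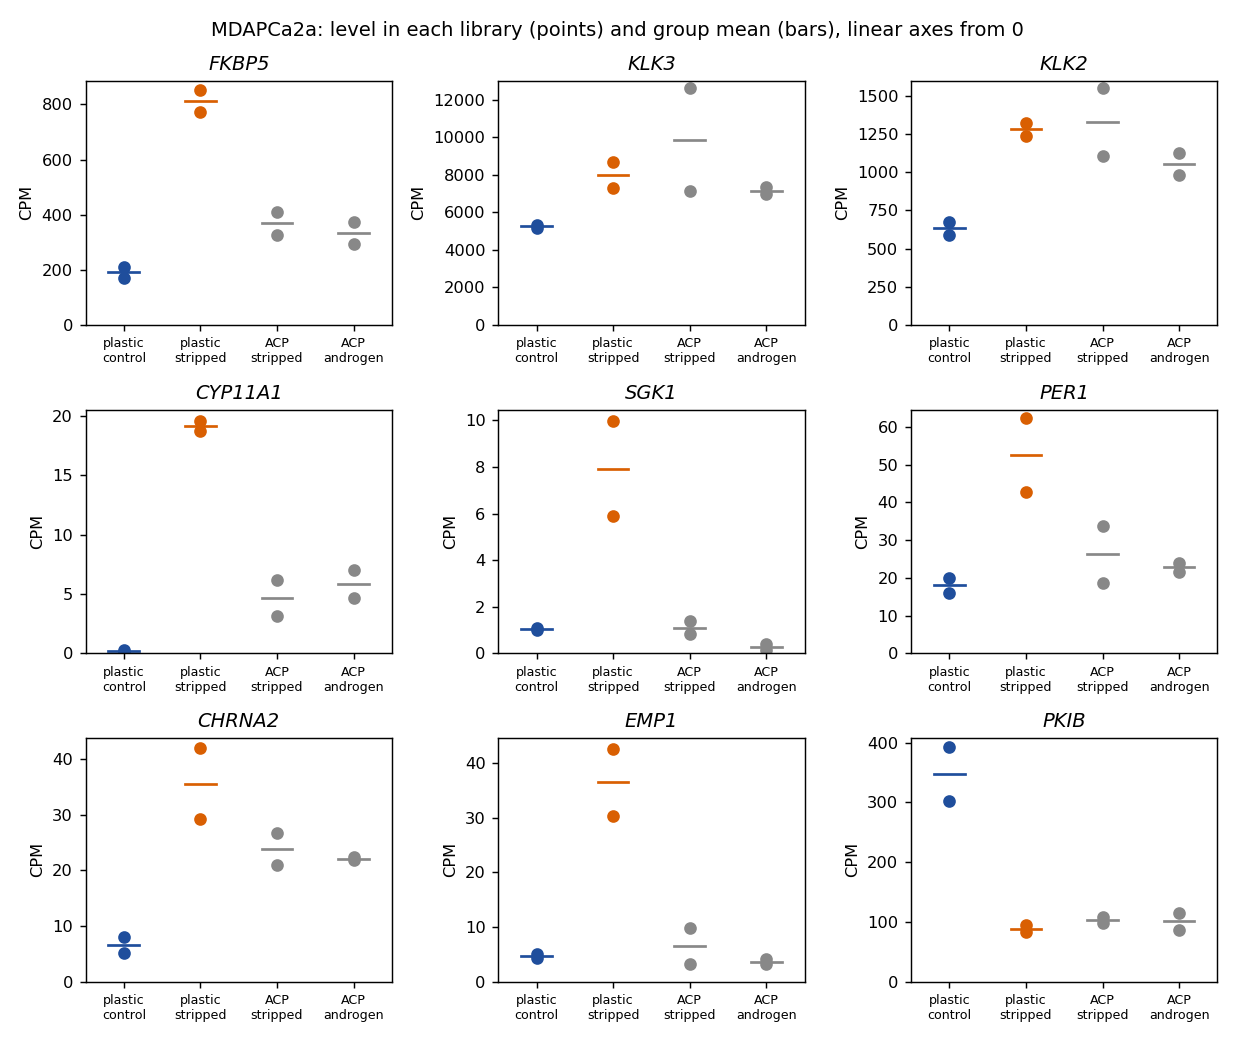
Levels of 9 genes in the 8 MDAPCa2a libraries, in CPM on linear axes from 0. Points are libraries and bars are group means (n = 2). FKBP5, CYP11A1, SGK1, PER1, CHRNA2 and EMP1 were higher in both plastic stripped libraries than in both plastic control libraries, as were KLK2 and KLK3, which did not pass the test, and PKIB was lower.

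SGK1 and PER1, which glucocorticoids induce, rose as well. SGK1, a kinase named for its induction by serum and glucocorticoids, was at 1.09 and 1.01 CPM in control medium and at 9.98 and 5.89 CPM in stripped serum, and rose by log2 2.92 ± 0.40 (edgeR adjusted p 0.0185). PER1, a repressor of the circadian clock, was at 16 and 20.0 CPM and then at 62.3 and 42.7 CPM, a rise of log2 1.54 ± 0.29 (adjusted p 0.0416). On ACP SGK1 was at 1.37 and 0.827 CPM without androgen and 0.412 and 0.153 CPM with it, so the plastic stripped libraries were the highest of this line. TSC22D3, the glucocorticoid-induced leucine zipper, was at 79.9 and 74.3 CPM and at 165 and 114 CPM (log2 0.86 ± 0.20, adjusted p 0.0738). ZBTB16, a zinc finger repressor, was at 29.5 and 30.1 CPM and at 63.3 and 44.4 CPM (log2 0.85 ± 0.19, adjusted p 0.0651). Both were higher in each stripped library without passing the threshold. Of 17 glucocorticoid-induced genes tested 2 rose and 0 fell, with 12 higher and 5 lower and a median of 0.75 (0.53 to 0.95 without 1 library), and 2 to 6 rose in the alternatives that kept the 4 libraries. MT2A, a metallothionein, was the lowest of the list, at 35.1 and 43.9 CPM and then at 18.9 and 7.54 CPM (log2 -1.57 ± 0.53, adjusted p 0.193).

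CYP11A1 had the largest rise of the 24 genes chosen by size. It had 0.0863 and 0.238 CPM in control medium and 19.6 and 18.7 CPM in stripped serum, a rise of log2 6.82 ± 0.50 (edgeR adjusted p 0.00360; log2 6.28 to 7.70 without 1 library). The libraries on ACP lay between, at 3.15 and 6.20 CPM without androgen and 4.65 and 7.03 CPM with it. Its promoter is shown because steroid-making tissues switch the gene on through nuclear receptors of the NR5A family, whose binding site is CAAGGNCA on either strand. The stretch covers bases -120 to -1 (GRCh38.p14, minus strand, chr15:74367647-74367766), with the match at -47 to -40 in capitals.
CYP11A1: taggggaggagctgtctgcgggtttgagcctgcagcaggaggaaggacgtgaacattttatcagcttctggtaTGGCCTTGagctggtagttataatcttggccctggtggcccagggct

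Of all RefSeq windows 5.28% hold this motif on either strand, and among the 24 genes with a window CYP11A1 and ORM1 did. NR5A2, a receptor of that family, was picked after its values were seen. It was at 4.08 and 3.97 CPM in control medium and 8.23 and 12.9 CPM in stripped serum, and rose by log2 1.39 ± 0.26 (edgeR adjusted p 0.0414). On ACP NR5A2 was at 15.3 and 16.4 CPM without androgen and 12.3 and 16.4 CPM with it. CYP11A1 was lower there than in stripped serum on plastic, and a link between the genes was not tested. CYP17A1 and STAR, partners of CYP11A1 in steroid-making tissues, were at or near 0. CYP17A1, which opens the route to androgens, had at most 0.0403 CPM in any of the 4 libraries, and STAR, which delivers cholesterol to mitochondria, at most 0.161 CPM. HSD3B1, another steroid enzyme gene, had 1 read in control medium and 8 in stripped serum, all 8 in replicate 2. Of 15 tested genes of steroid hormone synthesis, 2 rose and 1 fell (median log2 0.07). HSD11B2, which inactivates cortisol, rose from 84.8 and 95.2 CPM to 198 and 151 CPM (log2 0.96 ± 0.18, adjusted p 0.0373). HSD17B2, which oxidises testosterone and estradiol to weaker steroids, fell from 29.7 and 21.9 CPM to 7.81 and 7.62 CPM (log2 -1.74 ± 0.21, adjusted p 0.0149) and was at 4.43 to 6.09 CPM on ACP.

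ACAT2, FDPS and EBP, all of cholesterol synthesis, rose. Of 25 tested genes of cholesterol synthesis and uptake 3 rose and 0 fell, 23 were higher and 2 lower (median log2 0.61, and 0.33 to 0.65 without 1 library), and 3 to 9 rose in the alternatives that kept the 4 libraries. ACAT2, a cytosolic thiolase, rose from 30.7 and 34.2 CPM to 71.2 and 74.5 CPM (log2 1.16 ± 0.20, edgeR adjusted p 0.0320). FDPS, which makes farnesyl diphosphate, rose from 80.5 and 90.7 CPM to 165 and 145 CPM (log2 0.85 ± 0.15, adjusted p 0.0350). EBP, a sterol isomerase, rose from 57.9 and 66.0 CPM to 116 and 106 CPM (log2 0.84 ± 0.15, adjusted p 0.0339). These groups did not overlap. On ACP without androgen ACAT2 was at 51.0 and 37.3 CPM, FDPS at 103 and 94.2 CPM and EBP at 61.9 and 62.3 CPM. The summed level of the list was 5254 and 4954 CPM in control medium and 6112 and 6382 CPM in stripped serum on plastic. On ACP that sum was 4998 and 4572 CPM without androgen and 4619 and 4787 CPM with it. In 2 of the 3 other lines the plastic control libraries of ACAT2 and EBP were also below all others.

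Of 24 genes of fatty acid synthesis 0 rose and 1 fell, while 19 were higher and 5 lower (median log2 0.35). Without adjustment 9 were higher and 1 lower at p below 0.05, and 6 rises were called by DESeq2. Their summed level was 7782 and 8466 CPM in control medium and 13311 and 12537 CPM in stripped serum on plastic. On ACP it was 8542 and 7904 CPM without androgen and 8243 and 8468 CPM with it. ELOVL5, an elongase of polyunsaturated fatty acids, was at 643 and 662 CPM and then at 1289 and 1772 CPM (log2 1.23 ± 0.28, adjusted p 0.0707). The gene that fell, THRSP, a thyroid hormone-responsive regulator of lipogenesis, had 49 reads in control medium and 2 in stripped serum, 18.8-fold lower (95% exact interval 4.94 to 160; adjusted p 0.0485). In fatty acid oxidation 1 of 22 genes rose and 1 fell. ACAA1, a peroxisomal thiolase, rose from 83.7 and 93.6 CPM to 188 and 180 CPM (log2 1.06 ± 0.16, adjusted p 0.0235). CPT1A, which brings fatty acids into mitochondria, fell from 174 and 171 CPM to 97.4 and 94.1 CPM (log2 -0.85 ± 0.14, adjusted p 0.0317).

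**Figure D2:**
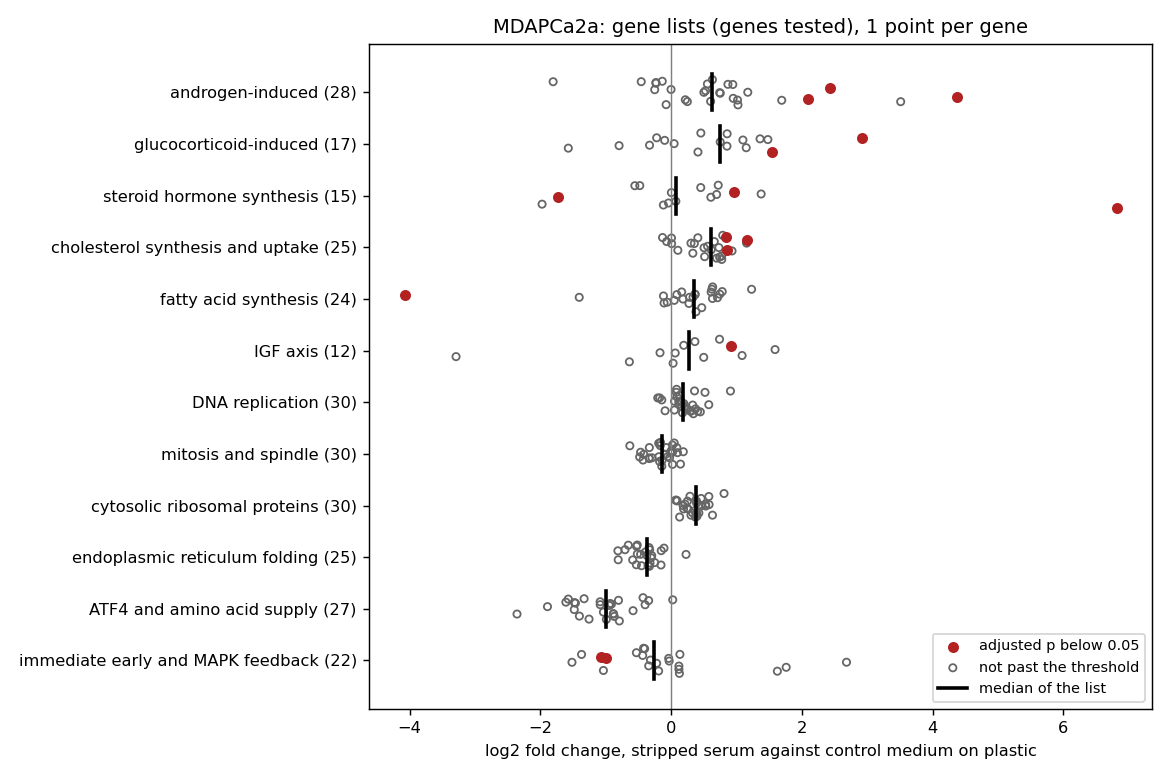
Log2 fold change of each tested gene in 12 lists, stripped against control medium on plastic, with the number of genes in brackets. Filled points passed the test and bars are medians. The androgen-induced, glucocorticoid-induced and cholesterol lists have medians of 0.62, 0.75 and 0.61, and the ATF4 list has a median of -0.99 with no gene past the threshold.

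Growth genes gave no single direction. Of 30 DNA replication genes and 30 genes of mitosis and the spindle, 0 passed the threshold with edgeR or with DESeq2. At an unadjusted p below 0.05, 1 replication gene and 0 mitosis genes were higher. Of the replication genes 26 were higher and 4 lower (median log2 0.18), with a median of -0.12 without plastic stripped replicate 1 and of 0.03 to 0.45 without any other library. The summed level of the mitosis genes was 571 and 1179 CPM in the control libraries and 1047 and 563 CPM in the stripped libraries, so the replicates of each group differed more than the groups. The median of the mitosis list was -0.14, and it changed sign, from -0.62 to 0.47, with the library left out. CDKN1B, which encodes the cyclin-dependent kinase inhibitor p27, was the 1 member of 16 G1 regulators that changed, and fell from 250 and 252 CPM to 153 and 147 CPM (log2 -0.74 ± 0.14, edgeR adjusted p 0.0444). Of 22 immediate early and MAPK feedback genes 0 rose and 2 fell. DUSP6, a phosphatase that switches off ERK, fell from 44.0 and 35.1 CPM to 21.2 and 18.2 CPM (log2 -1.0 ± 0.18, adjusted p 0.0357), and ETV4, an ETS transcription factor, from 86.8 and 85.9 CPM to 48.9 and 33.0 CPM (log2 -1.07 ± 0.22, adjusted p 0.0484). Of 12 genes of the insulin-like growth factor axis 1 rose, the binding protein IGFBP2, from 253 and 289 CPM to 490 and 526 CPM (log2 0.91 ± 0.18, adjusted p 0.0472). The receptor IGF1R was at 55.5 and 61.1 CPM and at 148 and 203 CPM (log2 1.59 ± 0.33, adjusted p 0.0528).

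Nearly all genes of amino acid supply had lower values in stripped serum, with replicates far apart, and 0 passed the test. Of 27 targets of ATF4, the transcription factor of the amino acid and stress response, 26 were lower (median log2 -0.99, and -1.48 to -0.64 without 1 library). At p below 0.05 without adjustment edgeR had 10 lower and 0 higher, DESeq2 gave 3 falls, and 17 fell with edgeR when no filter on low counts was used. The summed level was 14077 and 13378 CPM in control medium, 8717 and 4354 CPM in stripped serum on plastic, 3364 and 9083 CPM on ACP and 7076 and 8837 CPM on ACP with androgen. Plastic stripped replicate 2 and ACP stripped replicate 1 were the lowest of these. TRIB3, a pseudokinase of this response, was at 500 and 504 CPM and at 275 and 84.0 CPM (log2 -1.48 ± 0.61, edgeR adjusted p 0.274), and its plastic control libraries were above all others in 2 of the 3 other lines. Of 25 genes of folding in the endoplasmic reticulum 24 were lower (median log2 -0.37) and 0 passed with edgeR, with 10 lower at an unadjusted p below 0.05 and 3 falls by DESeq2. All 30 cytosolic ribosomal protein genes were higher (median log2 0.38), again with 0 past the threshold, 4 higher at an unadjusted p below 0.05 and 1 rise by DESeq2.

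Other hormone and xenobiotic targets had single calls. CYP1A1, the classic target of the aryl hydrocarbon receptor, fell from 12.6 and 9.92 CPM to 3.45 and 2.94 CPM (log2 -1.81 ± 0.33, edgeR adjusted p 0.0381). DHRS3, a retinal reductase that retinoic acid induces, fell from 86.3 and 87.9 CPM to 23.3 and 12.8 CPM (log2 -2.27 ± 0.43, adjusted p 0.0414). Each was the 1 call among 14 and 11 tested members of its list. KRT14, a basal keratin, rose from 11.1 and 13.8 CPM to 26.3 and 32.5 CPM (log2 1.24 ± 0.25, adjusted p 0.0485), the 1 call among 6 tested basal markers, while KRT5 was at 5.75 and 4.97 CPM and at 9.72 and 2.34 CPM. In all, 20 of the 43 lists held a call. The 23 without one held 351 tested genes, of which edgeR put 71 below 0.05 without adjustment and 16 were calls of DESeq2. Over all genes, edgeR put 2208 of 13626 below 0.05 without adjustment and DESeq2 called 594 of 14490. Interferon-stimulated genes, MHC class I genes, glycolysis and hypoxia genes, integrins, histones and respiratory chain genes were among the lists without a call.

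The other large rises were in genes of varied roles. EMP1, an epithelial membrane protein, was at 5.03 and 4.29 CPM and at 30.3 and 42.6 CPM, a rise of log2 2.97 ± 0.43 (edgeR adjusted p 0.0228), with 3.21 to 9.74 CPM on ACP. PHGR1 rose from 0.518 and 0.820 CPM to 9.27 and 7.78 CPM (log2 3.66 ± 0.52, adjusted p 0.0201). FBXO2, which hands glycoproteins to the ubiquitin system, had the closest replicates, with 4.20 and 4.18 CPM in control medium and 22.7 and 22.1 CPM in stripped serum (log2 2.41 ± 0.23, adjusted p 0.00719). KCNMA1, the pore of the large-conductance potassium channel, rose from 4.08 and 4.63 CPM to 18.1 and 28.7 CPM (log2 2.42 ± 0.44, adjusted p 0.0357). The scaffold gene DLG2, the adhesion gene TENM2, the heat shock gene HSPA2, the ligand gene BMP8B and LINC00883 rose by log2 2.13 to 2.77. Reads of BMP8B may be shared with its near copy BMP8A, and the use of strand in counting is not given in the sources used here, which bears on LINC00883.

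Among the falls PKIB, an inhibitor of protein kinase A, had the highest level, with 392 and 303 CPM in control medium and 82.6 and 95.1 CPM in stripped serum (log2 -1.97 ± 0.20, edgeR adjusted p 0.00781), and it stayed at 87.0 to 115 CPM on ACP. NIPSNAP3B fell from 7.31 and 6.16 CPM to 0.743 and 0.564 CPM (log2 -3.34 ± 0.34, adjusted p 0.00719). WNT5B, a Wnt ligand, fell from 6.18 and 4.79 CPM to 1.16 and 0.968 CPM (log2 -2.35 ± 0.36, adjusted p 0.0235). Its relative WNT5A, picked after its values were seen, fell from 298 and 221 CPM to 71.6 and 109 CPM (log2 -1.53 ± 0.23, adjusted p 0.0234). CD55, which protects cells from complement, fell from 23.3 and 21.8 CPM to 5.94 and 6.53 CPM (log2 -1.85 ± 0.22, adjusted p 0.0144). RND3, the mitochondrial enzyme gene DMGDH and FAM84A fell by log2 2.02 to 2.16.

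**Figure D3:**
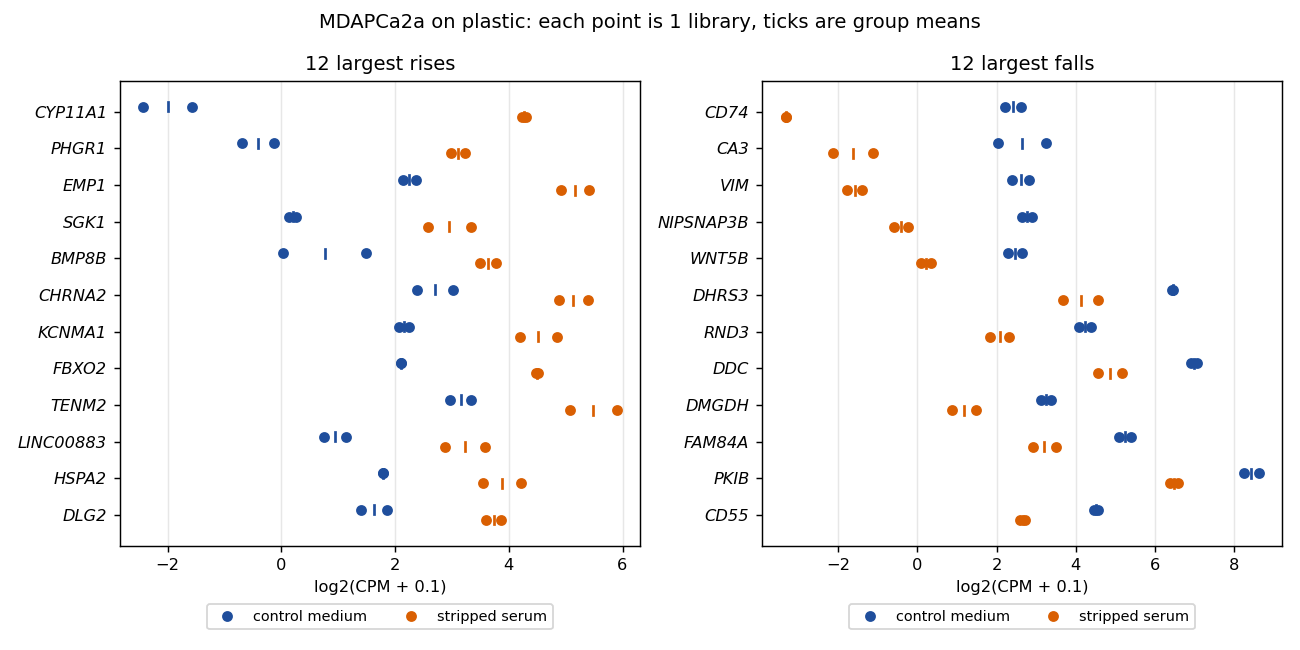
The 12 largest rises and 12 largest falls that passed the test, had groups that did not overlap and reached 5 CPM in 1 group mean, as log2(CPM + 0.1). Points are libraries and ticks are means of the 2 libraries. Control and stripped libraries stand apart in each gene, and CD74 had 0 reads in both stripped libraries.

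The next falls lay in genes whose plastic control libraries were also above all others in 1 or more of the 3 other lines. Some are typical of other tissues, and where their RNA came from was not tested. CD74, the invariant chain of MHC class II, was at 5.98 and 4.50 CPM in control medium and had 0 reads in stripped serum. This was at least 96.8-fold lower with the same limit (edgeR adjusted p 0.00719). Of 8 tested MHC class II genes it was the 1 that fell, and 7 were higher (median log2 0.42). CA3, a muscle carbonic anhydrase, fell from 9.38 and 3.99 CPM to 0.129 and 0.363 CPM (log2 -4.79 ± 0.61, adjusted p 0.0153). Of 2 tested skeletal muscle markers 0 passed the threshold, with 1 higher and 1 lower. VIM, the mesenchymal filament gene, fell from 6.93 and 5.18 CPM to 0.194 and 0.282 CPM (log2 -4.66 ± 0.62, adjusted p 0.0174). C3, the central complement protein, fell from 4.11 and 2.09 CPM to 0.0646 and 0.121 CPM (log2 -5.03 ± 0.61, adjusted p 0.0170). SPARC, a matrix protein, fell from 3.88 and 1.11 CPM to 0.129 and 0.0806 CPM (log2 -4.48 ± 0.75, adjusted p 0.0317). The collagen gene COL5A1 was the 1 fibroblast marker of 4 tested that fell (log2 -3.61 ± 0.71, adjusted p 0.0463). In LNCaP the same contrast gave log2 -0.21 for VIM and 1.11 for COL5A1 in the fit of all lines. CD74, CA3, C3 and SPARC were lower in stripped LNCaP too. In bulk RNA, fewer cells of a type and less RNA per cell cannot be told apart.

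Of 12 tested liver markers 4 fell and 0 rose. ALB, serum albumin, had 212 reads in control medium and 0 in stripped serum, at least 54.3-fold lower (edgeR adjusted p 0.0185). FGG, a fibrinogen chain, had 131 reads and 0, at least 33.6-fold lower (adjusted p 0.0320). APOA1 had 125 reads and 2, 48.0-fold lower (95% exact interval 13.0 to 401; adjusted p 0.0286), and TF, transferrin, 97 reads and 1, 74.5-fold lower (13.1 to 2974; adjusted p 0.0343). Reads were present for 18 and 19 of the 20 liver markers in the control libraries and for 7 to 10 in the stripped libraries, and their summed level was 31.5 to 41.6 CPM and 18.5 to 20.5 CPM. Over all lines that sum was 31.3 to 196 CPM in the 8 plastic control libraries and 1.70 to 403 CPM in the 26 others. Each of these 8 had reads for 18 or 19 liver markers, and each of the 26 for at most 15. Fibroblast markers summed to 5.66 to 7.44 CPM in control medium and 2.07 to 2.66 CPM in stripped serum, and lymphoid and myeloid markers to 2.49 to 3.39 CPM and 2.80 to 3.84 CPM. The part of other tissues' RNA in the falls was not tested.

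Of the 95 genes that fell, 13 (13.7%) had their plastic control libraries above every other library in all of the 3 other lines, against 290 of 13626 genes tested (2.13%). For 38 (40.0%) this held in none of these lines, against 65.2% of all genes tested. Of the 120 that rose, 5 (4.17%) had them below every other library in all 3, against 125 (0.917%) of all genes tested. For 88 (73.3%) this held in none, against 77.5% of all genes tested. The plastic control libraries were above all others in 3 other lines for CD74, FGG, APOA1 and TF and in 2 for ALB, CA3, VIM, C3, COL5A1, THRSP, WNT5B and DMGDH. For C3 and WNT5B they were below all others in the remaining line. For CYP11A1, SGK1, CHRNA2, DDC, HSD17B2, CYP1A1 and PKIB they were on neither side in any other line. For FKBP5, PER1 and DUSP6 they were above in 1 line. Taking away the genes on either side in all 3 lines left 197 calls (115 rose, 82 fell), by counting, without a new fit or adjustment.

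In LNCaP 18 of the 28 androgen-induced genes fell under the same contrast and 0 rose, beside 751 of all 17323 genes tested that fell (4.34%) and 382 that rose (2.21%). In MDAPCa2a 5 of the 28 rose in that fit and 0 fell, beside 161 of all genes that rose (0.929%) and 232 that fell (1.34%). The difference of the serum effects, MDAPCa2a minus LNCaP, passed the threshold in 313 of 17323 genes (1.81%; edgeR quasi-likelihood interaction test, Benjamini-Hochberg, fit of all 34 libraries), and was positive in 203 (1.17%) and negative in 110 (0.635%). Both control groups are plastic control libraries. The count was 151 to 218 when 1 library was left out, lowest without LNCaP plastic stripped replicate 1. Among 28 androgen-induced genes the difference was positive in 19 and negative in 0, with a median log2 change of 0.58 in MDAPCa2a and -1.80 in LNCaP. Among 19 glucocorticoid-induced genes it was positive in 5 and negative in 0 (medians 0.72 and -0.60), and among 26 genes of cholesterol synthesis and uptake positive in 8 and negative in 0 (0.55 and -0.47). Of 24 fatty acid synthesis genes it was positive in 8 and negative in 0 (0.31 and -0.55).

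KLK3 was at 7497 and 8666 CPM in stripped MDAPCa2a and at 135 and 124 CPM in stripped LNCaP, from 5349 and 5557 CPM and 2862 and 2815 CPM in control medium (log2 difference of the effects 5.02 ± 0.76, edgeR adjusted p 3.06e-04). FKBP5 fell in LNCaP from 185 and 158 CPM to 62.9 and 75.4 CPM, and the difference of the effects was log2 3.37 ± 0.41 (adjusted p 1.93e-05). CYP11A1 fell in LNCaP from 5.96 and 5.5 CPM to 1.39 and 0.357 CPM, a difference of log2 9.40 ± 0.95 (adjusted p 1.04e-06), and CHRNA2 from 27.5 and 21.8 CPM to 0.616 and 0.510 CPM, a difference of log2 7.81 ± 0.57 (adjusted p 1.04e-08). DDC went the other way and rose in LNCaP from 14.5 and 18.0 CPM to 157 and 161 CPM (difference log2 -5.42 ± 0.75, adjusted p 1.03e-04). The differences of KLK3, FKBP5, CYP11A1, CHRNA2 and DDC held without each of the 8 libraries compared.

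For the ATF4 targets the lines were on the same side, with medians of -1.02 in MDAPCa2a and -1.46 in LNCaP. In the fit of all lines 2 of the 27 fell in MDAPCa2a and 18 in LNCaP, and of 25 genes of folding in the endoplasmic reticulum 1 and 9 fell. With edgeR the difference passed in 0 of 27 of these genes and in 0 of these 25 (medians -0.40 and -0.52). TRIB3 had a difference of log2 0.86 ± 0.61 (edgeR adjusted p 0.727) and HSPA5, the main chaperone of that compartment, of log2 -0.13 ± 0.36 (adjusted p 1.00), which does not show that the lines respond alike. FGG, read at 2.38 and 1.41 CPM in MDAPCa2a and at 2.43 and 2.52 CPM in LNCaP in control medium, had 0 reads in all 4 stripped libraries.

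**Figure D4:**
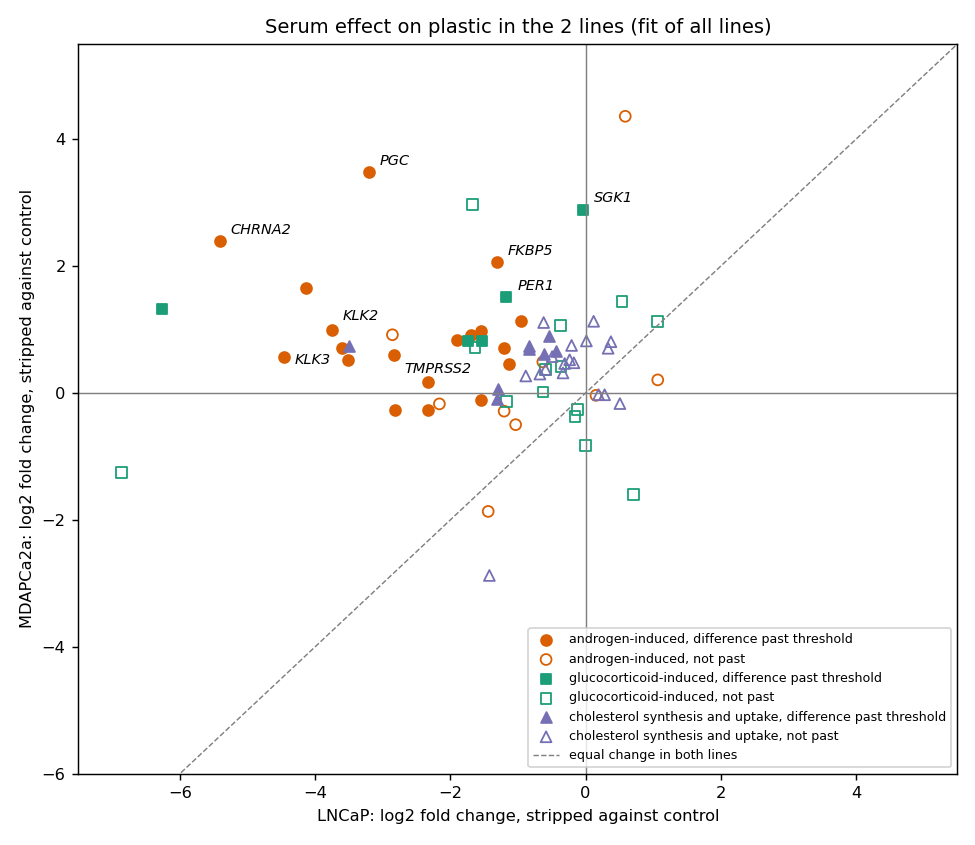
Fitted log2 fold change of stripped against control medium on plastic in LNCaP (x axis) and MDAPCa2a (y axis) for the androgen-induced, glucocorticoid-induced and cholesterol genes. Filled symbols are genes whose difference between the lines passed the test, 19 of 28, 5 of 19 and 8 of 26, and all lie above the dashed line of equal change.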

How the data were processed

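Poly(A)-selected RNA of 34 libraries was sequenced, per the labels' protocols. The authors deposited raw read counts per gene symbol (26336 genes, 4335 without reads). STAR, HTSeq and hg19 are named in the submitters' processing notes, without versions, and the sources used here do not give annotation or strand. Columns were matched to samples by the labels. Genes were tested with edgeR 4.0.16 in R 4.3.3 (quasi-likelihood F test, TMM, filterByExpr minimum count 10, Benjamini-Hochberg adjusted p below 0.05). The fit of the 4 MDAPCa2a groups (8 libraries, 13626 genes, 4 residual degrees of freedom, biological coefficient of variation 18.6%) gave the main contrast, and the fit of all 34 libraries (17323 genes, 17 degrees of freedom) the interaction. CPM use the TMM sizes of the fit concerned, so levels differ slightly between them. The summed levels of liver, fibroblast, and lymphoid and myeloid markers use library totals without TMM factors. SE is the log2 change over the square root of F. A limit of 0 reads is 3 counts over the 2 libraries of a group together. Intervals cover counting error only.

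Named were the 12 largest rises and falls past the threshold that reached 5 CPM in 1 group mean without overlap between groups (157 genes qualified), members of the 43 lists past the threshold or with the largest difference, 8 fixed genes, and the 5 largest differences between lines in each direction. Any others were picked once their values were known. The members and lists were chosen with earlier results of these data known, so the lists are described by counts and medians without a set test. Promoters come from RefSeq (GRCh38.p14). The steps were tested on simulated counts. Alternatives included DESeq2 1.42.0, which used the 8 MDAPCa2a libraries for the main contrast and all 34 libraries for the interaction. Some genes are not reported here.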

Additional observations from a re-analysis of the deposited data

Results flagged for a closer look

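The serum effect on plastic differed between MDAPCa2a and LNCaP past the threshold (edgeR interaction test, Benjamini-Hochberg) in WNT5A and 26 other named genes. Differences are log2, MDAPCa2a minus LNCaP, and the values in brackets are the changes in MDAPCa2a and in LNCaP. No explanation was tested.

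Among steroid-responsive genes the difference was 7.81 for CHRNA2 (2.40 and -5.41), 6.69 for PGC (3.48 and -3.21), 5.02 for KLK3 (0.57 and -4.46), 4.74 for KLK2 (0.99 and -3.76), 3.43 for TMPRSS2 (0.59 and -2.84) and 3.37 for FKBP5 (2.06 and -1.31). It was 2.93 for SGK1 (2.89 and -0.04), 2.68 for PER1 (1.51 and -1.17), 2.57 for TSC22D3 (0.83 and -1.74) and 2.35 for ZBTB16 (0.82 and -1.53). The KLK2 difference was not past the threshold without either MDAPCa2a plastic control replicate or either LNCaP plastic stripped replicate (4.62 to 4.86 without 1 library), and that of ZBTB16 was not without MDAPCa2a plastic stripped replicate 1 or LNCaP plastic stripped replicate 2 (1.97 to 2.92).

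In lipid and growth factor genes it was 3.33 for ELOVL5 (1.19 and -2.14), 1.53 for INSIG1 (0.69 and -0.84) and 3.72 for IGF1R (1.55 and -2.17), all held without each of the 8 libraries. CYP11A1 had the largest positive difference of the genes chosen by size, 9.40 (6.79 and -2.61), followed after CHRNA2 by PGLYRP2 at 7.08 (6.12 and -0.95), PGC, and ANGPT2 at 6.64 (4.08 and -2.56). ANGPT2, a vessel ligand, was at 0.232 and 1.90 CPM in stripped MDAPCa2a and lost the call without plastic stripped replicate 2 of that line (4.49 to 7.5), and PGLYRP2 kept it in 2 of 8 settings (6.53 to 7.85). EMP1 differed by 4.46 (2.93 and -1.53) and KCNMA1 by 4.00 (2.39 and -1.61). The EMP1 call was lost without MDAPCa2a plastic control replicate 2 or either LNCaP plastic stripped replicate (4.22 to 4.67).

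Negative differences were -5.79 for PTPRR (-4.21 and 1.58), -5.74 for OPRK1 (-1.59 and 4.15), -5.42 for DDC (-2.12 and 3.29) and -5.33 for HPR (-5.13 and 0.21). OPRK1, the kappa opioid receptor, was at 8.18 and 9.56 CPM in LNCaP control medium and at 183 and 133 CPM in stripped serum, and at 0.465 to 1.58 CPM in MDAPCa2a. PTPRR had 53 reads in MDAPCa2a control medium and 2 in stripped serum, and HPR 55 and 1, so their fitted values depend on the prior count and are no bounds. HPR also has a close paralog. The PTPRR call was lost without 3 of the 8 libraries (-8.97 to -4.74) and that of HPR without MDAPCa2a plastic control replicate 1 or plastic stripped replicate 1 (-7.67 to -4.36). NIPSNAP3B differed by -5.01 (-3.38 and 1.63), COL5A1 by -4.76 (-3.65 and 1.11), VIM by -4.49 (-4.70 and -0.21) and PKIB by -2.68 (-2.0 and 0.68), and the COL5A1 call was lost in 5 of 8 settings (-5.53 to -4.32). WNT5A, picked after its values were seen, differed by -3.03 (-1.56 and 1.47). Its difference was not recomputed with a library left out.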

How the results depend on the processing

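The count of 215 MDAPCa2a genes was 855 without a filter on low counts, 594 with DESeq2, 617 in a fit of the 4 compared libraries, 393 in a fit of all 34 libraries (161 rose, 232 fell) and 528 with a correction for GC content and length, which was chosen after seeing the data. Without 1 library it was 0 to 7, where an arm has 1 library that is assumed to vary like the other groups. All 24 genes chosen by size passed under every setting that kept the 4 libraries and was fitted anew. Taking away the genes of the plastic control pattern, which was done without a new fit, removed CD74. Between lines the count of 313 was 491 with DESeq2 and 151 to 218 without 1 library. RLE size factors gave 219 and 321. Of the single genes recomputed under these settings none changed direction. Of the list medians given above, 3 changed sign. That of mitosis became 0.03 with a replicate block and 0.47 or 0.22 when replicate 2 of the control or of the stripped libraries was left out. That of DNA replication became -0.12 without plastic stripped replicate 1, and that of steroid hormone synthesis -0.03 without a filter, with DESeq2 and in the fit of all 34 libraries. The cause of these moves was not tested.

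Same-numbered libraries did not deviate together (r = -0.22 across 13626 genes, which are not independent), so the numbers were not treated as pairs. With a replicate block 176 and 300 genes passed, and crossing the replicate numbers gave 601. The median GC content was 48.5% for the genes tested, 52.5% for those that rose and 46.9% for those that fell.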
